A study of Arabidopsis thaliana with 16 samples.

Results

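Roots of the EXS34 line of Arabidopsis thaliana were compared with roots of the EXS32 line. In both, the pho1-4 mutant carries a fusion of GFP, the green fluorescent protein, with EXS, a domain of the PHO1 protein. The libraries were chosen by their labels, as the root libraries of line 34 and line 32, which gave 4 of the 16 libraries of the study. EXS34 had 2 root libraries and EXS32 had 2. Roots of pho1-4 itself (labelled KO, 2 libraries) and of pho1-4 complemented with the PHO1 gene (labelled Compl, 2 libraries) entered the same fit and are set beside the lines as levels without a test. All plants carry the pho1-4 mutation, were left untreated in Oil-Dri pellets fed with Hoagland solution, and were 25 days old. EXS34 and EXS32 are each 1 transgenic line, and the labels give neither the promoter of the fusion nor how strongly it is expressed. The comparison asks how far roots of 2 lines with the same fusion differ in their transcripts.

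PHO1 exports phosphate from root cells into the xylem, and EXS lies at its C-terminal end, in the membrane. The results below concern mainly genes of sulfur, nitrogen and sugar metabolism. Glucosinolates are sulfur-rich defence compounds of the cabbage family, built on a core of methionine (aliphatic) or tryptophan (indole) that is converted to an aldoxime, joined to sulfur from glutathione, glucosylated and finally sulfated. The sulfate donor for that last step, PAPS, is made by APS kinases, whereas APS reductases send the same precursor, APS, into cysteine synthesis. Genes of the dark-inducible group are known to be activated when carbohydrate runs short and to break down cell wall sugars, starch and amino acids.

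Reads assigned to genes numbered 23156496 and 25631140 in the EXS34 libraries, against 21700922 and 24277561 in the EXS32 libraries. Levels are given as CPM, read counts scaled by TMM-corrected library size, first for replicate 1 and then for replicate 2. Whether libraries of a line stem from separate plants is not stated in the labels, and p-values here reflect only how far these libraries scatter. A principal component analysis of all 8 placed Compl replicate 1 apart, at 53.1 on the first axis (44.5% of variance); Compl replicate 2 was at 25.15, and EXS34, EXS32 and KO libraries ranged from -36.0 to 9.30. The root identity of the libraries was visible in transcripts such as CASP1, a scaffold of the Casparian strip, at 146 and 101 CPM in EXS34 and 129 and 135 CPM in EXS32. Leaf transcripts differed in level. CA1 and RBCS1B were at or under 0.215 CPM in EXS34 and at 0 in EXS32. LHCB1.3 was at 171 and 196 CPM in EXS34 and at 37.8 and 89.7 CPM in EXS32. The summed level of the 35 photosynthesis transcripts was 527 and 657 CPM in EXS34, against 232 and 379 CPM in EXS32. It was 262 and 375 CPM in KO and 227 and 191 CPM in Compl. In whole roots, fewer cells of a type and less RNA per cell cannot be told apart.

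PHO1 (AT3G23430, chromosome 3, 8387398 to 8393467 in TAIR10.1) had 2395 and 1439 CPM in EXS34, against 1891 and 1886 CPM in EXS32, 2221 and 1937 CPM in KO and 2267 and 2934 CPM in Compl. The EXS34 libraries lay on both sides of the EXS32 libraries, and the log2 fold change of EXS34 over EXS32 was 0.02 ± 0.25 (SE; edgeR adjusted p = 0.975). Without EXS34 replicate 1 it was -0.39 (adjusted p = 0.392). Because reads are counted over the whole locus, transcripts of the mutant gene and of the fusion are added up in this level, which therefore checks no label and does not measure the fusion by itself.

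Of 20597 genes tested, 187 (0.908%) were called between EXS34 and EXS32 at an adjusted p under 0.05. EXS34 was higher for 119 of them (0.578%) and lower for 68 (0.33%). The change was at least 2-fold for 108 genes, 74 higher and 34 lower, and the median size of the log2 fold change of called genes was 1.08. Over all genes the median log2 fold change was 0.02 and 52.7% were positive. For all 187 called genes the EXS34 libraries did not overlap the EXS32 libraries, but neither did they for 54% of all genes tested, so a lack of overlap carries little weight here. The lowest adjusted p was 0.0138, and 3632 genes (17.63%) had an unadjusted p under 0.05. On the same genes DESeq2 called 1085 (5.27%), 649 higher (3.15%) and 436 lower (2.12%), and limma-voom called 127 (0.617%), 72 higher (0.35%) and 55 lower (0.267%). Calls below are those of edgeR where no other tool is named. Counts in the lists by DESeq2 or by an unadjusted p stand against the shares of all genes given here.

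The calls rested on every library of both lines. The count was 15 without EXS34 replicate 1, and 0 without EXS34 replicate 2, without EXS32 replicate 1 or without EXS32 replicate 2, where 2374, 2273 and 1688 genes had an unadjusted p under 0.05. In these reduced fits the line with 1 library is assumed to vary like the others. The count was 35 without KO replicate 1 and 6 without KO replicate 2, which enter the fit only through the estimate of the spread, and 355 without Compl replicate 1 and 350 without Compl replicate 2. All 187 genes kept their direction in each of these fits. The fits reuse the libraries that selected the genes, so this adds no separate support. The adjusted p-values below, mostly between 0.02 and 0.05, are therefore close to the limit of what these libraries resolve.

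**Figure D1:**
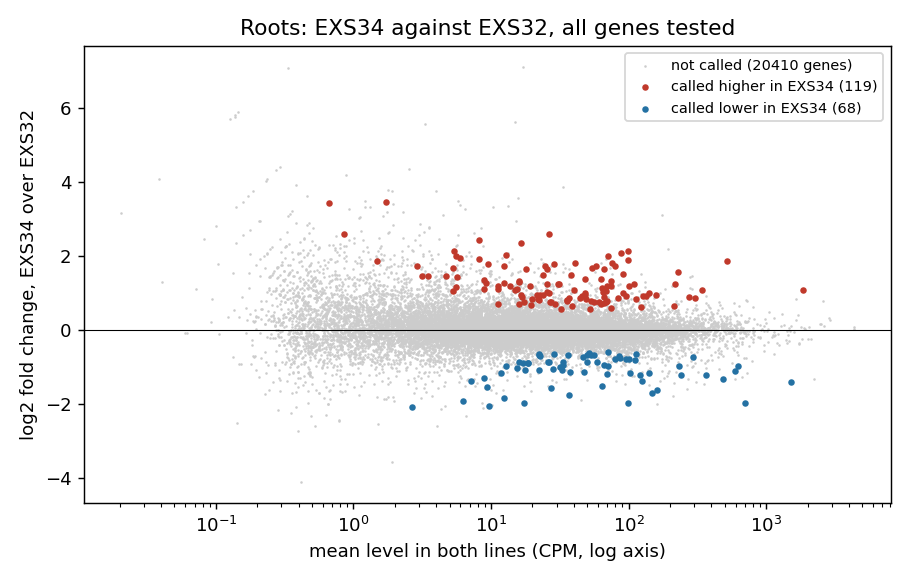
Each point is 1 of 20597 genes in roots, with its mean level over the 4 libraries of both lines on the x axis (CPM, log scale) and the log2 fold change of EXS34 over EXS32 on the y axis. The 119 genes called higher in EXS34 are red, the 68 called lower are blue, and grey points were not called at an adjusted p under 0.05.

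Of 33 genes of aliphatic glucosinolate synthesis, 28 were tested, 13 were called higher (46.4%, against 0.578% of all genes) and none was called lower. The median log2 fold change of the 28 was 1.09, against 0.02 for all genes, and all 28 values were positive, from 0.38 to 2.15. The 13 called genes span the pathway from its regulator to transport.

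MYB28 (AT5G61420), the main activator of the aliphatic branch, had 77.2 and 108 CPM in EXS34, against 46.8 and 41.4 CPM in EXS32, 55.1 and 64.5 CPM in KO and 72.2 and 76.9 CPM in Compl. Both EXS34 libraries lay above both EXS32 libraries, with a log2 fold change of 1.07 ± 0.17 (adjusted p = 0.0444). The side chain of methionine is lengthened by a cycle that includes IPMI1 and IPMI2, small subunits of an isopropylmalate isomerase, fed by BAT5, which carries keto acids into the plastid. IPMI1 (AT3G58990) had 109 and 128 CPM in EXS34 and 29.0 and 37.8 CPM in EXS32, a log2 fold change of 1.83 ± 0.23 (adjusted p = 0.0373). For IPMI2 (AT2G43100) the levels were 91.3 and 111 CPM in EXS34 and 29.8 and 34.3 CPM in EXS32, and the log2 fold change was 1.65 ± 0.17 (adjusted p = 0.0221). BAT5 (AT4G12030) stood at 88.2 and 94.9 CPM in EXS34 and 31.1 and 39.5 CPM in EXS32 (log2 fold change 1.38 ± 0.23, adjusted p = 0.0481). None of these libraries overlapped between the lines, which also held for 54% of all genes.

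CYP79F2 (AT1G16400, chromosome 1), which turns chain-elongated methionine into its aldoxime, had 153 and 171 CPM in EXS34, against 32.6 and 41.1 CPM in EXS32, 167 and 204 CPM in KO and 148 and 228 CPM in Compl. EXS32 was the low group and the other 6 libraries lay within 148 to 228 CPM. The log2 fold change of EXS34 over EXS32 was 2.13 ± 0.23 (adjusted p = 0.0225). Its near-identical neighbour CYP79F1 was counted at 0.172 and 0.578 CPM in EXS34 and at 0 and 0.041 CPM in EXS32 and was not tested; since reads that align to both copies were set aside, the split between the copies is uncertain.

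The core of the molecule is completed by GGP1, a peptidase that trims the glutathione conjugate, SUR1, the C-S lyase, the glucosyltransferases UGT74B1 and UGT74C1, and the sulfotransferases SOT17 and SOT18. All were called higher in EXS34. The log2 fold changes were 0.92 ± 0.11 for GGP1, 1.00 ± 0.13 for SUR1, 1.202 ± 0.13 for UGT74B1, 1.69 ± 0.25 for UGT74C1, 1.82 ± 0.24 for SOT17 and 1.26 ± 0.17 for SOT18, with adjusted p-values from 0.0221 to 0.0415. UGT74C1 had 65.2 and 101 CPM in EXS34, against 21.6 and 29.9 CPM in EXS32, and SOT17 had 50.6 and 77.5 CPM in EXS34, against 16.6 and 19.5 CPM in EXS32. For both, replicate 2 of EXS34 was well above replicate 1, yet replicate 1 still exceeded both EXS32 libraries. SUR1 also serves the indole branch and had 171 and 201 CPM in EXS34 and 87.6 and 99.1 CPM in EXS32.

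Genes of side chain oxidation and transport were also called higher. FMOGS-OX3 (AT1G62560), which oxidises the sulfur of the side chain, had 7.74 and 9.72 CPM in EXS34, against 1.70 and 2.21 CPM in EXS32, 4.79 and 9.10 CPM in KO and 7.28 and 8.66 CPM in Compl (log2 fold change 2.15 ± 0.34, adjusted p = 0.0444). GTR2 (AT5G62680), a glucosinolate importer used in transport between organs, had 185 and 231 CPM in EXS34, against 103 and 113 CPM in EXS32 (log2 fold change 0.95 ± 0.15, adjusted p = 0.0462). Among the 15 members not called, 13 had no overlap between the lines (as did 54% of all genes); GSTF11, a glutathione transferase of the pathway, had 17.3 and 20.7 CPM in EXS34 and 4.46 and 5.37 CPM in EXS32 (adjusted p = 0.0628), and GTR1, the other importer, had 48.7 and 40.5 CPM in EXS34 and 25.5 and 25.1 CPM in EXS32 (adjusted p = 0.0733). The count of called members was 1 without EXS34 replicate 1, 4 without KO replicate 1, and 0 without EXS34 replicate 2, either EXS32 library or KO replicate 2, while the list median stayed between 0.87 and 1.29.

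The indole list held fewer called members. Of 16 indole genes tested, 3 were called higher in EXS34 (18.8%, against 0.578% of all genes) and none lower (0.33% of all genes). The median log2 fold change was 0.43. The core genes GGP1, SUR1 and UGT74B1 and the importer GTR2 were counted only in the aliphatic list. The counts of these lists therefore do not separate the branches. MYB34 (AT5G60890), the root activator of the branch, had 96.9 and 110.0 CPM in EXS34, against 49.0 and 41.7 CPM in EXS32, 63.6 and 85.3 CPM in KO and 103 and 81.0 CPM in Compl (log2 fold change 1.19 ± 0.18, adjusted p = 0.0435). CYP79B2 (AT4G39950), which converts tryptophan to indole-3-acetaldoxime, had 265 and 419 CPM in EXS34, against 101 and 128 CPM in EXS32 (log2 fold change 1.58 ± 0.23, adjusted p = 0.0410). SOT16, the sulfotransferase of the indole branch, had 164 and 169 CPM in EXS34, against 87.7 and 88.7 CPM in EXS32 (log2 fold change 0.92 ± 0.15, adjusted p = 0.0456). Both EXS34 libraries exceeded both EXS32 libraries for all 3 genes, and 54% of all genes also had no overlap. Members that modify the indole ring were not called: CYP81F4 had 348 and 506 CPM in EXS34 and 179 and 132 CPM in EXS32 (adjusted p = 0.0911), and the methyltransferase IGMT1 had 79.6 and 49.0 CPM in EXS34 and 129.7 and 107 CPM in EXS32 (adjusted p = 0.128). MYB51, another activator of the branch, was also not called, with 18.3 and 21.4 CPM in EXS34 and 28.9 and 28.0 CPM in EXS32 (adjusted p = 0.164). Leaving out EXS34 replicate 1 left 1 call in this list, and leaving out any other EXS library or a KO library left 0.

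Of 16 tested genes of sulfate activation and reduction, 4 were called higher in EXS34 (25%, against 0.578% of all genes) and none lower, with a list median of 0.40. The 4 were APR1, APR2, APK2 and APK1. APR1 (AT4G04610), an APS reductase of the cysteine route, had 143 and 143 CPM in EXS34, against 30.1 and 37.5 CPM in EXS32, 118 and 133 CPM in KO and 111 and 179.6 CPM in Compl. The EXS34 libraries were nearly identical and over 100 CPM above both EXS32 libraries, and the log2 fold change was 2.08 ± 0.23 (adjusted p = 0.0238). APR2 (AT1G62180) had 62.9 and 66.4 CPM in EXS34, against 30.4 and 33.4 CPM in EXS32 (log2 fold change 1.02 ± 0.17, adjusted p = 0.0481). The third isoform, APR3, had 105 and 74.2 CPM in EXS34 and 43.2 and 45.2 CPM in EXS32 and was not called (adjusted p = 0.166).

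APK2 (AT4G39940) and APK1 (AT2G14750), APS kinases that make PAPS for sulfotransferases, had some of the lowest adjusted p-values of the comparison. APK2 had 116 and 127 CPM in EXS34, against 33.3 and 39.5 CPM in EXS32 (log2 fold change 1.74 ± 0.14, adjusted p = 0.0138), and APK1 had 103 and 90.4 CPM in EXS34, against 40.3 and 44.4 CPM in EXS32 (log2 fold change 1.19 ± 0.13, adjusted p = 0.0221). SAL1 (AT5G63980), which is not on the list, is the phosphatase that clears PAP, the by-product of sulfation. It had 86.7 and 89.1 CPM in EXS34, against 42.8 and 43.8 CPM in EXS32, 57.5 and 68.4 CPM in KO and 73.6 and 70.0 CPM in Compl (log2 fold change 1.02 ± 0.11, adjusted p = 0.0221). APS1, an ATP sulfurylase that makes APS itself, had 329 and 437 CPM in EXS34 and 229 and 245 CPM in EXS32 and was not called (adjusted p = 0.0809). In this list 1 call was left without EXS34 replicate 1 or without KO replicate 2, 3 without KO replicate 1, and 0 without another EXS library.

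Among 14 tested genes known to rise under sulfur deficiency, GGCT2;1 (AT5G26220), which degrades glutathione, was the only call (7.14%, against 0.578% of all genes called higher). It had 4.47 and 1.81 CPM in EXS34, against 0.230 and 0.328 CPM in EXS32, 1.74 and 2.17 CPM in KO and 2.18 and 2.69 CPM in Compl. Replicate 1 of EXS34 was the high library, and the log2 fold change was 3.46 ± 0.54 (adjusted p = 0.0435), the largest among all called genes. Its call was lost with limma-voom (adjusted p = 0.0917), with only the EXS34 and EXS32 libraries (0.0668) and without any 1 EXS34, EXS32 or KO library (0.0676 to 0.333). The list median was 0.81; edgeR called 4 members higher without the Compl libraries or without either of them, and DESeq2 called 6. SDI1, a repressor of glucosinolate synthesis, had 4.604 and 1.70 CPM in EXS34 and 0.368 and 0.615 CPM in EXS32 (adjusted p = 0.102), and LSU2, a small protein of the low-sulfur response, had 11.3 and 7.83 CPM in EXS34 and 2.21 and 3.53 CPM in EXS32 (adjusted p = 0.0733); neither was called. AK3 (AT3G02020), an aspartate kinase at the entry of the pathway that also yields methionine, had 160.3 and 152 CPM in EXS34, against 39.8 and 43.2 CPM in EXS32, and was called higher (log2 fold change 1.91 ± 0.31, adjusted p = 0.0481).

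**Figure D2:**
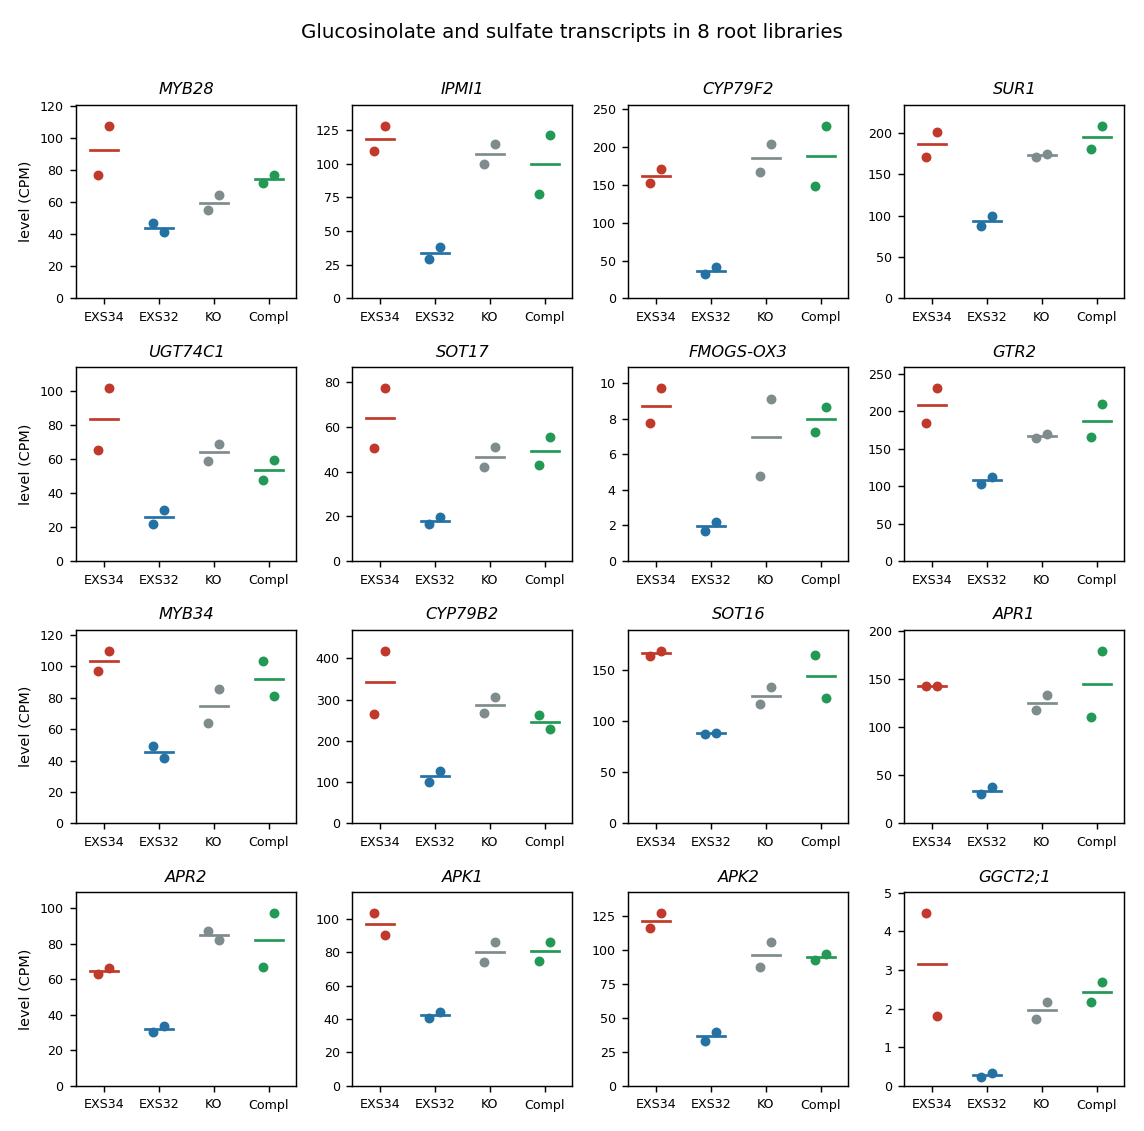
Level in CPM (y axis, from 0) of 16 genes called higher in EXS34, with 1 point per root library and a line at the mean of each group (EXS34, EXS32, KO and Compl, 2 libraries each). EXS32 is the low group for CYP79F2, APR1, APK2 and the other genes shown, at 30.1 and 37.5 CPM for APR1 against 111 to 180 CPM in the other 6 libraries.

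Called genes that neighbour each other numbered 3 pairs, and 2 of these lie in these pathways. SOT18 (chromosome 1, 27862814 to 27864193, plus strand) and SOT16 (27864345 to 27865694, minus strand) face each other with 151 bp between their ends. APK2 (chromosome 4, 18519599 to 18521605) and CYP79B2 (18525042 to 18527602) lie on the plus strand 3436 bp apart. The remaining pair was AT3G52360, with no annotated function in the table used, and FLA15, a fasciclin-like arabinogalactan protein, on chromosome 3. Called genes were spread over all 5 chromosomes, from 0.753% of those tested on chromosome 5 to 1.15% on chromosome 4.

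Type-A response regulators are primary cytokinin response genes that dampen the cytokinin signal, and they are switched on by type-B regulators that bind a short core, AGATT. Of 10 tested, 3 were called higher in EXS34 (30%, against 0.578% of all genes) and none lower, with a median log2 fold change of 0.78. ARR7 (AT1G19050) had 44.4 and 45.2 CPM in EXS34, against 11.7 and 14.1 CPM in EXS32, 38.6 and 47.2 CPM in KO and 36.1 and 32.8 CPM in Compl, a log2 fold change of 1.79 ± 0.14 (adjusted p = 0.0138, the lowest value reached in the comparison). ARR6 (AT5G62920) had 40.1 and 37.4 CPM in EXS34, against 13.1 and 11.8 CPM in EXS32 (log2 fold change 1.64 ± 0.18, adjusted p = 0.0221), and ARR5 (AT3G48100) had 77.8 and 60.8 CPM in EXS34, against 27.5 and 25.4 CPM in EXS32 (log2 fold change 1.39 ± 0.15, adjusted p = 0.0221). For each of the 3, the lowest EXS34 library was at least 2-fold above the highest EXS32 library. ARR15 had 2.67 and 4.09 CPM in EXS34 and 1.75 and 1.11 CPM in EXS32 (adjusted p = 0.151), and ARR4 had 123 and 129 CPM in EXS34 and 82.3 and 95.5 CPM in EXS32 (adjusted p = 0.150). Neither was called.

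The 250 bases before the annotated start of ARR7 and ARR6 are shown because these are the regulators with the largest changes and each holds the AGATT core 3 times, counting both strands; capitals mark AGATT or its complement AATCT. The sequences are RefSeq TAIR10.1, minus strand, chr1:6579315-6579564 for ARR7 and chr5:25254319-25254568 for ARR6.
ARR7: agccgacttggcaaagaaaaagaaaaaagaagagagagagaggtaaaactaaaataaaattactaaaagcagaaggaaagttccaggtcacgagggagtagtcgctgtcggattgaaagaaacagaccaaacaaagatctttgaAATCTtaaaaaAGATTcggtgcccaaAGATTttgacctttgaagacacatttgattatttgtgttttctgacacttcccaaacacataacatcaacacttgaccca
ARR6: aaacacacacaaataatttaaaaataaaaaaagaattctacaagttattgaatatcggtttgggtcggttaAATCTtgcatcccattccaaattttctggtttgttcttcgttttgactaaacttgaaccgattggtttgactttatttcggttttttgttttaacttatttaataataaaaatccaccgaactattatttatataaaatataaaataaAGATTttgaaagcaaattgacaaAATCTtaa
The core is short and common: 62.5% of the 20552 promoter windows of tested genes hold it, as do 7 of the 10 type-A regulators (70%), and the ARR5 window holds none.

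Of 22 tested genes that make, move or perceive cytokinin, edgeR and limma-voom called 0. DESeq2 called 3 higher (against 3.15% of all genes), and 12 had an unadjusted edgeR p under 0.05 (against 17.63% of all genes). CYP735A2, which makes trans-zeatin forms, had 56.4 and 56.9 CPM in EXS34 and 32.1 and 37.0 CPM in EXS32 (adjusted p = 0.0664), and ABCG14, the transporter that loads cytokinin for export to the shoot, had 201 and 247 CPM in EXS34 and 155 and 125 CPM in EXS32 (adjusted p = 0.107). The list median was 0.16. The calls of the 3 regulators were kept without KO replicate 1 and without either Compl library; 1 was left without EXS34 replicate 1 or KO replicate 2 and none without the other EXS libraries.

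Nitrogen transport and assimilation held 4 genes called higher and 1 called lower among 41 tested (9.76% and 2.44%, against 0.578% and 0.33% of all genes), with a list median of 0.24. NRT1.1 (AT1G12110), a nitrate transporter and sensor, had 698 and 943 CPM in EXS34, against 215 and 229.8 CPM in EXS32, 820.2 and 563 CPM in KO and 749 and 1069 CPM in Compl (log2 fold change 1.88 ± 0.26, adjusted p = 0.0392). AMT1;2 (AT1G64780), an ammonium transporter of inner root cells, had 37.99 and 38.4 CPM in EXS34, against 11.8 and 11.2 CPM in EXS32, 39.1 and 37.8 CPM in KO and 75.5 and 97.5 CPM in Compl. The libraries of each line were almost equal, and the log2 fold change was 1.73 ± 0.14 (adjusted p = 0.0138). GLT1 (AT5G53460), the NADH-dependent glutamate synthase, had 2462 and 2582 CPM in EXS34, against 1184 and 1211 CPM in EXS32 (log2 fold change 1.07 ± 0.15, adjusted p = 0.0378). RFNR2, which supplies reduced ferredoxin to nitrite reductase in roots, had 373 and 412 CPM in EXS34, against 210.5 and 215 CPM in EXS32 (log2 fold change 0.88 ± 0.11, adjusted p = 0.0330).

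The gene called lower was GDH1 (AT5G18170), a glutamate dehydrogenase that releases carbon skeletons from glutamate. It had 162 and 129 CPM in EXS34, against 345 and 334 CPM in EXS32, 154 and 172 CPM in KO and 94.5 and 90.6 CPM in Compl (log2 fold change -1.22 ± 0.13, adjusted p = 0.0221). NRT2.1, a high-affinity nitrate transporter, had the widest gap of the list but uneven EXS34 libraries, with 128 and 495 CPM in EXS34 and 37.96 and 34.2 CPM in EXS32, and was not called (adjusted p = 0.0642). The nitrate and nitrite reductases NIA2 and NIR1 were not called either. NIA2 had 153 and 192 CPM in EXS34 and 113 and 101 CPM in EXS32 (adjusted p = 0.0745), and NIR1 had 434 and 438 CPM in EXS34 and 303 and 292 CPM in EXS32 (adjusted p = 0.0733). Without EXS34 replicate 1 the list kept 2 calls higher and 1 lower, without KO replicate 1 it kept 1 of each, without KO replicate 2 it kept 1 higher, and without another EXS library it kept none.

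**Figure D3:**
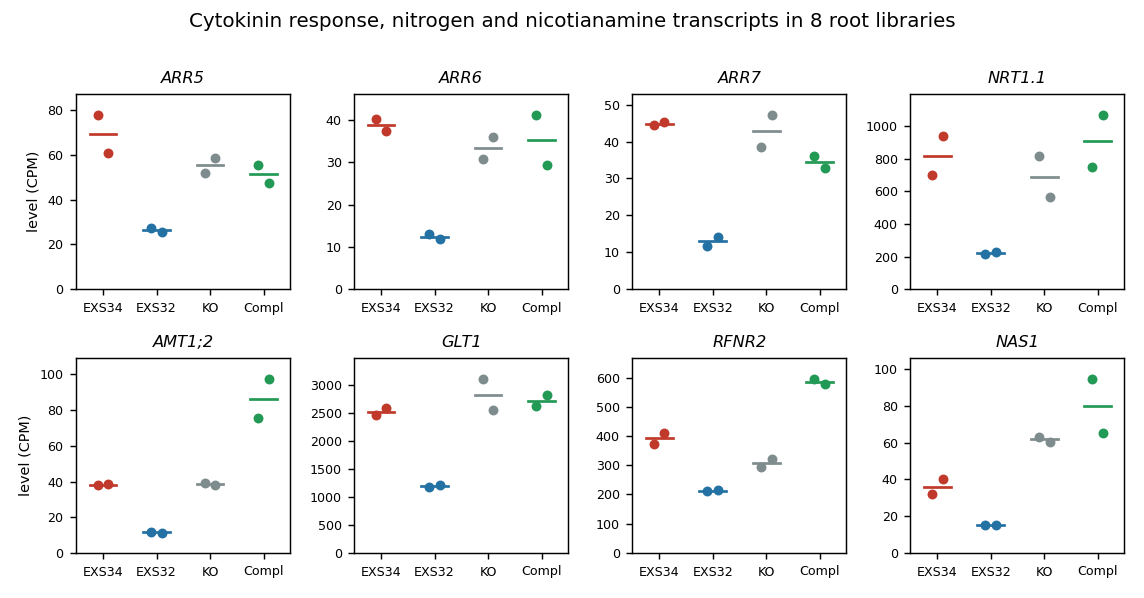
Level in CPM (y axis, from 0) of 8 genes called higher in EXS34, with 1 point per root library and a line at the mean of each group (EXS34, EXS32, KO and Compl, 2 libraries each). EXS32 is the low group for each, and for AMT1;2 the Compl libraries (75.5 and 97.5 CPM) lie above EXS34 (37.99 and 38.4 CPM).

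Transcripts called lower in EXS34 roots included genes of carbohydrate and amino acid breakdown. In the dark-inducible list 2 of 21 tested genes were called lower (9.52%, against 0.33% of all genes) and none higher. The list median was -1.12, and 20 of the 21 values were negative. DIN10 (AT5G20250), a raffinose synthase family gene, had 258 and 311 CPM in EXS34, against 1014 and 1236 CPM in EXS32, 646 and 552 CPM in KO and 391 and 357 CPM in Compl. EXS32 was the highest of the 4 groups, and the log2 fold change was -1.98 ± 0.16 (adjusted p = 0.0140). STP1 (AT1G11260), a monosaccharide importer of the plasma membrane, had 248 and 193 CPM in EXS34, against 519 and 511 CPM in EXS32, 264 and 229 CPM in KO and 177 and 153 CPM in Compl (log2 fold change -1.22 ± 0.15, adjusted p = 0.0330).

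Other members had large gaps that did not pass. DIN3, a subunit of the branched-chain keto acid dehydrogenase, had 130.5 and 58.7 CPM in EXS34 and 308 and 339 CPM in EXS32 (adjusted p = 0.0773), and its partner DIN4 had 26.98 and 21.8 CPM in EXS34 and 43.1 and 44.8 CPM in EXS32 (adjusted p = 0.0591). AKINBETA1, a subunit of the energy sensor kinase SnRK1, had 108 and 71.3 CPM in EXS34 and 198 and 179 CPM in EXS32 (adjusted p = 0.0865). Among the 19 members not called, 18 had no overlap between the lines (as did 54% of all genes). DESeq2 called 16 members lower (against 2.12% of all genes), and the edgeR fit called 1 without either KO library, 4 without either Compl library and 0 without any 1 of the EXS libraries.

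Several called genes outside this list act on sugars, and they were called in both directions. The trehalose phosphate phosphatases TPPH and TPPI were called higher, with log2 fold changes of 1.49 ± 0.24 and 1.46 ± 0.23 (adjusted p = 0.0456 and 0.0435), whereas the genes that follow were called lower. BGAL1 (AT3G13750) and BGAL2 (AT3G52840) are beta-galactosidases that act on cell wall polymers. BGAL1 had 258 and 294 CPM in EXS34, against 734 and 646 CPM in EXS32, 192 and 227 CPM in KO and 147 and 133 CPM in Compl (log2 fold change -1.32 ± 0.14, adjusted p = 0.0221), and BGAL2 had 29.3 and 37.4 CPM in EXS34, against 105 and 85.0 CPM in EXS32 (log2 fold change -1.51 ± 0.15, adjusted p = 0.0221). UGE3 (AT1G63180), an epimerase that interconverts UDP-glucose and UDP-galactose, had 21.2 and 12.5 CPM in EXS34, against 60.2 and 53.8 CPM in EXS32 (log2 fold change -1.76 ± 0.24, adjusted p = 0.0378). AT3G47800, annotated as a galactose mutarotase-like protein, had 21.6 and 20.4 CPM in EXS34, against 41.8 and 42.5 CPM in EXS32 (log2 fold change -1.01 ± 0.10, adjusted p = 0.0221). For BGAL1, BGAL2, UGE3 and AT3G47800 both EXS34 libraries lay below both EXS32 libraries, and 54% of all genes also had no overlap.

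MCCB (AT4G34030), a subunit of 3-methylcrotonyl-CoA carboxylase in leucine breakdown, had 84.0 and 60.1 CPM in EXS34, against 171 and 165 CPM in EXS32, 75.8 and 79.4 CPM in KO and 67.9 and 49.5 CPM in Compl (log2 fold change -1.22 ± 0.19, adjusted p = 0.0444). AT3G59480, a sugar kinase of the pfkB family, had 7.62 and 6.44 CPM in EXS34, against 28.6 and 26.3 CPM in EXS32 (log2 fold change -1.97 ± 0.24, adjusted p = 0.0327). ALDH3I1, an aldehyde dehydrogenase, had 13.6 and 14.1 CPM in EXS34, against 39.8 and 41.9 CPM in EXS32, 26.0 and 24.1 CPM in KO and 9.15 and 8.57 CPM in Compl, with one of the lowest adjusted p-values among genes called lower (log2 fold change -1.56 ± 0.11, adjusted p = 0.0138). EXS32 was the highest group for these 3 genes.

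UMAMIT20 (AT4G08290), of a family of amino acid transporters, had 87.3 and 70.5 CPM in EXS34, against 225 and 263 CPM in EXS32 (log2 fold change -1.63 ± 0.16, adjusted p = 0.0221). ACBP3, an acyl-CoA-binding protein, had 87.3 and 52.6 CPM in EXS34, against 182 and 181 CPM in EXS32 (log2 fold change -1.38 ± 0.23, adjusted p = 0.0480), with replicate 2 of EXS34 the lowest of these. AT2G33830, a dormancy/auxin associated gene, was among the most abundant transcripts called, at 888 and 767 CPM in EXS34 and 2125 and 2283 CPM in EXS32 (log2 fold change -1.41 ± 0.22, adjusted p = 0.0435). In the list of sugar transport and use, edgeR called 0 of 14, with 4 at an unadjusted p under 0.05, DESeq2 called 3 lower and limma-voom 0; SWEET2, a vacuolar sugar transporter of roots, had 19.6 and 11.7 CPM in EXS34 and 37.1 and 43.1 CPM in EXS32 (adjusted p = 0.0733), and the sucrose synthase SUS1 had 165 and 139 CPM in EXS34 and 226 and 286 CPM in EXS32 (adjusted p = 0.0799).

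The motif TATCCA, known from promoters repressed by sugar in rice, was searched on both strands in the same windows of 250 bases. It was present in 17 of the 68 windows of genes called lower (25%), in 15 of 119 of genes called higher (12.6%), in 5 of 21 of the dark-inducible list (23.8%) and in 13.9% of all 20552. The 4 windows printed belong to genes called lower that hold it 1 or 2 times; capitals mark TATCCA or its complement TGGATA. They are RefSeq TAIR10.1, on the plus strand at chr1:3776986-3777235 for STP1, on the minus strand at chr1:23429653-23429902 for UGE3, and on the plus strand at chr4:13675287-13675536 for BBX28 and chr5:8365351-8365600 for AT5G24490.
STP1: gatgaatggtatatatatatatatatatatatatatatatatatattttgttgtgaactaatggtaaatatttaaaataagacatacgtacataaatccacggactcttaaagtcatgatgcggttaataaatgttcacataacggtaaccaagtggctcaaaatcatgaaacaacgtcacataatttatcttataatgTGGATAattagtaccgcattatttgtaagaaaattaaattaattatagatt
UGE3: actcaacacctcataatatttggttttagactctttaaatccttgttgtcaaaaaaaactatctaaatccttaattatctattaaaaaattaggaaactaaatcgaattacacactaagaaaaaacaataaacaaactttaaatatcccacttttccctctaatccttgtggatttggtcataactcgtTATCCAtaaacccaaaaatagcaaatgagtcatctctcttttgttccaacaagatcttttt
BBX28: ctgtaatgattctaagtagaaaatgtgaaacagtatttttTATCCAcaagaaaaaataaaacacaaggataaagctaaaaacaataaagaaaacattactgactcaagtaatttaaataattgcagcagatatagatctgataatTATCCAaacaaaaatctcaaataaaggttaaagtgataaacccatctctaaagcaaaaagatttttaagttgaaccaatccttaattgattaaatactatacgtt
AT5G24490: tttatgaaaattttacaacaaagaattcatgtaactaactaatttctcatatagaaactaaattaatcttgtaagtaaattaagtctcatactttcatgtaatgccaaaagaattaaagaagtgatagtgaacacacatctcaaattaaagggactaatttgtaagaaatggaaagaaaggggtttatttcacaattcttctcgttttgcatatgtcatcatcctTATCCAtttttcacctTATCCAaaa
BBX28 (AT4G27310), a B-box zinc finger gene, had 5.77 and 3.74 CPM in EXS34, against 13.2 and 14.6 CPM in EXS32 (log2 fold change -1.55 ± 0.25, adjusted p = 0.0444). AT5G24490, annotated as a 30S ribosomal protein, had 83.1 and 56.5 CPM in EXS34, against 219 and 233 CPM in EXS32, 92.7 and 91.0 CPM in KO and 41.7 and 27.6 CPM in Compl (log2 fold change -1.69 ± 0.23, adjusted p = 0.0398). The DIN10 window holds no TATCCA.

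**Figure D4:**
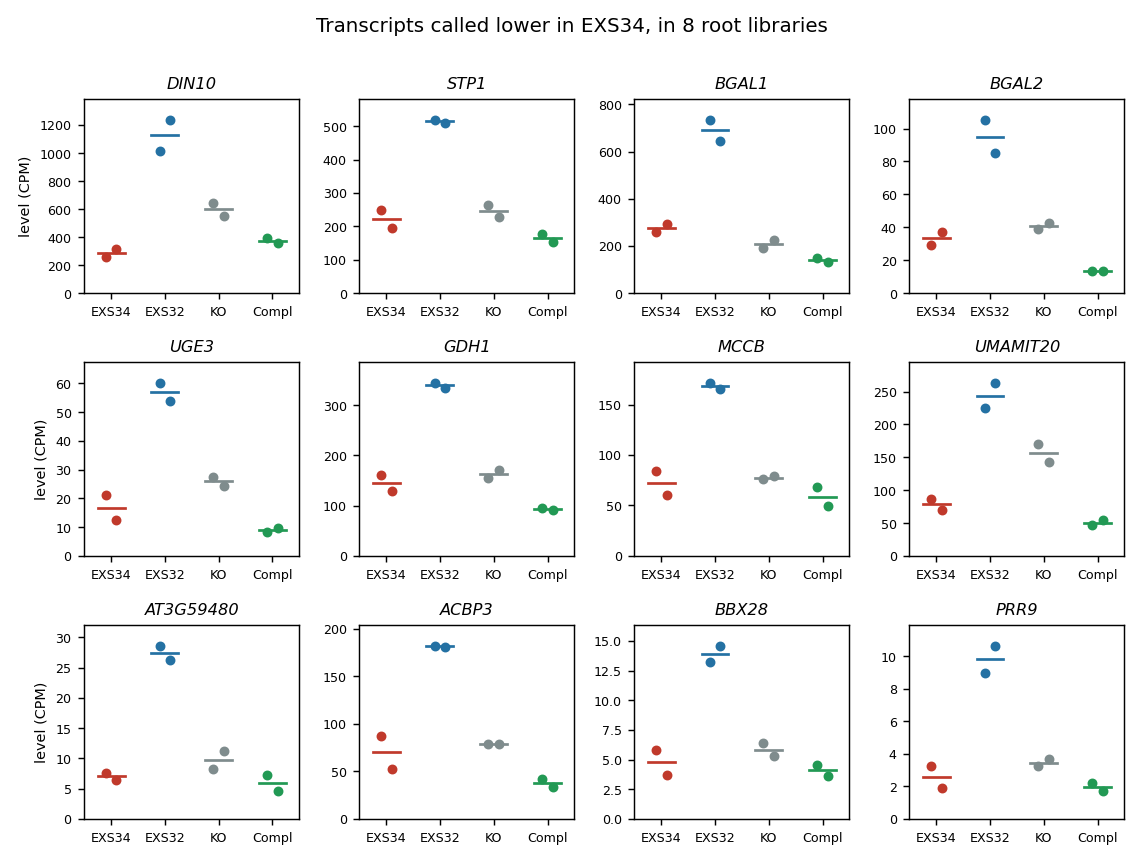
Level in CPM (y axis, from 0) of 12 genes called lower in EXS34, with 1 point per root library and a line at the mean of each group (EXS34, EXS32, KO and Compl, 2 libraries each). EXS32 is the highest group in every panel, as for STP1 with 519 and 511 CPM in EXS32 and 153 to 264 CPM in the other 6 libraries.

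In the circadian clock list PRR9 (AT2G46790), a repressor expressed in the morning, was the only one of 26 tested genes called (3.85%, against 0.33% of all genes called lower); DESeq2 called 7 lower. It had 3.27 and 1.93 CPM in EXS34, against 9.01 and 10.7 CPM in EXS32, 3.23 and 3.69 CPM in KO and 2.18 and 1.71 CPM in Compl (log2 fold change -1.92 ± 0.29, adjusted p = 0.0410). The call was lost with only the EXS34 and EXS32 libraries in the fit (adjusted p = 0.0536) and without any 1 EXS34, EXS32 or KO library (0.0538 to 0.326). The list median was -0.47, and 17 of 26 values were negative. CCA1, the morning oscillator gene, had 1.16 and 2.04 CPM in EXS34 and 4.32 and 6.03 CPM in EXS32 (adjusted p = 0.0895), LNK2, an activator, had 17.9 and 9.10 CPM in EXS34 and 35.0 and 41.7 CPM in EXS32 (adjusted p = 0.0801), and TOC1, an evening gene, had 133 and 126 CPM in EXS34 and 174 and 185 CPM in EXS32 (adjusted p = 0.0946). The labels do not give the hour of harvest, so its part in these values was not tested.

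The window before PRR9 is shown because it holds 2 copies, 1 on each strand, of AATATCT, the core of the evening element bound by clock proteins; capitals mark AATATCT or its complement AGATATT. It is RefSeq TAIR10.1, plus strand, chr2:19232357-19232606.
PRR9: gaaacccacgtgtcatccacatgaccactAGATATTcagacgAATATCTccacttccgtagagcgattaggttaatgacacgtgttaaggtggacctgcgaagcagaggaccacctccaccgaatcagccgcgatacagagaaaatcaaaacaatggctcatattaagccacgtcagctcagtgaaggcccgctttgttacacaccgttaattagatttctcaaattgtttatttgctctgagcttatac
The core is present in 14 of the 26 windows of the clock list (53.8%) and in 10.1% of all windows. It is in 9 of the 68 windows of genes called lower (13.2%) and 17 of the 119 called higher (14.3%).

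Of 33 tested genes of phosphate signalling, edgeR and limma-voom called 0 and DESeq2 called 1 lower (against 2.12% of all genes). Of the 33, 10 had an unadjusted edgeR p under 0.05 (against 17.63% of all genes), and the list median was -0.03. With only the EXS34 and EXS32 libraries edgeR called 1 lower. NLA, a ubiquitin ligase that limits phosphate transporters, had 55.1 and 56.5 CPM in EXS34 and 84.9 and 95.8 CPM in EXS32 (adjusted p = 0.0957), and SPX4, an intracellular phosphate sensor, had 18.1 and 19.2 CPM in EXS34 and 24.8 and 26.5 CPM in EXS32 (adjusted p = 0.105). PHR1, the central regulator of the starvation response, had 67.6 and 58.8 CPM in EXS34 and 77.8 and 78.8 CPM in EXS32 (adjusted p = 0.170). Outside this list PHT2;1 (AT3G26570), the phosphate transporter of the chloroplast envelope, was called higher, with 12.9 and 16.4 CPM in EXS34, against 4.18 and 4.22 CPM in EXS32, 5.73 and 8.72 CPM in KO and 5.35 and 4.96 CPM in Compl (log2 fold change 1.802 ± 0.24, adjusted p = 0.0378). Photosynthesis transcripts were also higher in these EXS34 libraries, as the sums above show, and their part in this change was not tested.

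Of 34 iron genes, NAS1 (AT5G04950), a nicotianamine synthase, was the only one called (2.94%, against 0.578% of all genes called higher); DESeq2 called 3 higher and 1 lower. It had 31.8 and 40.4 CPM in EXS34, against 15.3 and 15.3 CPM in EXS32, 63.3 and 60.4 CPM in KO and 94.7 and 65.3 CPM in Compl (log2 fold change 1.24 ± 0.19, adjusted p = 0.0435). The ferritin FER1, the nearest of the others by adjusted p, had 130.2 and 146 CPM in EXS34 and 259 and 213 CPM in EXS32 (adjusted p = 0.0664). Outside this list FRO8 (AT5G50160), annotated as a ferric reduction oxidase, was called higher. Its levels were 4.52 and 4.78 CPM in EXS34, against 1.47 and 1.89 CPM in EXS32. The log2 fold change of FRO8 was 1.46 ± 0.22 (edgeR adjusted p = 0.0410). The NAS1 call was lost with limma-voom (adjusted p = 0.0597) and without any 1 EXS34, EXS32 or KO library (0.0644 to 0.333). Of 12 zinc genes edgeR and limma-voom called 0, with 3 at an unadjusted edgeR p under 0.05 (against 17.63% of all genes). DESeq2 called 2 of them higher and 1 lower (against 3.15% and 2.12% of all genes). The close copies of NAS1 make its count uncertain, because reads shared with a copy were set aside.

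Anthocyanin genes had the largest list median, 2.68 over 18 tested, and the tools differed on them. EdgeR and limma-voom called 0, DESeq2 called 13 higher (against 3.15% of all genes), and edgeR without the filter on low counts called 2. An unadjusted edgeR p under 0.05 was reached by 14 (against 17.63% of all genes). For 16 of the 18 the lines did not overlap, as for 54% of all genes. CHI, chalcone isomerase, had 5.46 and 4.82 CPM in EXS34, against 0.460 and 1.23 CPM in EXS32, 1.32 and 2.08 CPM in KO and 0.572 and 0.463 CPM in Compl (log2 fold change 2.58 ± 0.45, adjusted p = 0.0530). F3'H, flavonoid 3'-hydroxylase, had 7.14 and 7.67 CPM in EXS34, against 0.322 and 0.738 CPM in EXS32, 0.417 and 1.68 CPM in KO and 0.468 and 0.139 CPM in Compl (log2 fold change 3.78 ± 0.69, adjusted p = 0.0642). EXS34 was the high group of the 4 for both, at levels under 8 CPM.

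Photosynthesis transcripts had a median of 1.18 over 31 tested genes, of which 27 were positive. EdgeR and limma-voom called 0 of them, DESeq2 called 14 higher (against 3.15% of all genes), and edgeR without the filter called 1. An unadjusted edgeR p under 0.05 was reached by 21 (against 17.63% of all genes). LHCB3, of the light-harvesting antenna, had 13.6 and 13.2 CPM in EXS34 and 2.85 and 5.25 CPM in EXS32 (adjusted p = 0.0801), and RBCS1A, a small subunit of Rubisco, had 50.04 and 61.0 CPM in EXS34 and 12.6 and 22.9 CPM in EXS32 (adjusted p = 0.0857). Their close copies make both counts uncertain. Heat-shock genes had a median of 1.85 over 8 tested, of which edgeR and limma-voom called 0, DESeq2 called 1 and 4 had an unadjusted edgeR p under 0.05; HSP70 had 8.13 and 21.6 CPM in EXS34 and 2.25 and 2.09 CPM in EXS32 (adjusted p = 0.0773), EXS34 replicate 2 being the high library. Another member of that protein family, AT3G09440, was called higher, with 293 and 316 CPM in EXS34, against 128 and 127 CPM in EXS32 (log2 fold change 1.26 ± 0.12, adjusted p = 0.0221).

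Markers of root cell types held 1 called gene. EXPA7 (AT1G12560), an expansin of root hairs, was called lower, 1 of 16 root hair genes tested (6.25%, against 0.33% of all genes), with 41.3 and 40.8 CPM in EXS34, against 63.9 and 67.4 CPM in EXS32, 52.9 and 48.1 CPM in KO and 59.1 and 52.1 CPM in Compl (log2 fold change -0.68 ± 0.10, adjusted p = 0.0415). The summed level of root hair genes was 623 and 596 CPM in EXS34, against 728 and 754 CPM in EXS32. The EXPA7 call was lost without any 1 EXS34, EXS32 or KO library (adjusted p = 0.0809 to 0.333). Of 23 endodermis and suberin genes (median 0.47) edgeR and limma-voom called 0, with 6 at an unadjusted edgeR p under 0.05; DESeq2 called 4 higher, and edgeR called 2 without the Compl libraries or without either of them. Their sum was 1287 and 1365 CPM in EXS34, against 1048 and 1074 CPM in EXS32. Of 18 xylem wall genes (median 0.30) edgeR and limma-voom called 0, with 5 at an unadjusted edgeR p under 0.05 (against 17.63% of all genes). DESeq2 called 2 of these xylem wall genes higher (against 3.15% of all genes). Their sum was 1818 and 1897 CPM in EXS34, against 1586 and 1592 CPM in EXS32. The part of these shifts in the results above was not tested.

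In 16 of the 27 lists, with 299 tested entries, edgeR and limma-voom called no member. Of these 299 entries 98 had an unadjusted edgeR p under 0.05 (against 17.63% of all genes). DESeq2 called 52 of them (against 5.27% of all genes), in 14 of the 16 lists. The 16 lists without an edgeR call include jasmonate (21 tested, median 0.79), abscisic acid and cold (23, median 0.32) and salicylate (16, median 0.09). Auxin (15, median 0.02), aquaporins (18, median -0.11) and cell division (20, median 0.12) are also among the 16, and DESeq2 called 0 in cell division. Housekeeping genes had a median of -0.08. Of the 187 called genes 34 are in a list and 153 are in none. A list without a call therefore does not cover its whole process. Outside the lists IAA28, annotated as auxin inducible, was called higher (log2 fold change 0.79 ± 0.12, edgeR adjusted p = 0.0410). SNRK2.3, a kinase of abscisic acid signalling, was called lower (log2 fold change -0.79 ± 0.11, edgeR adjusted p = 0.0398). EDS5, described below, was also called.

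**Figure D5:**
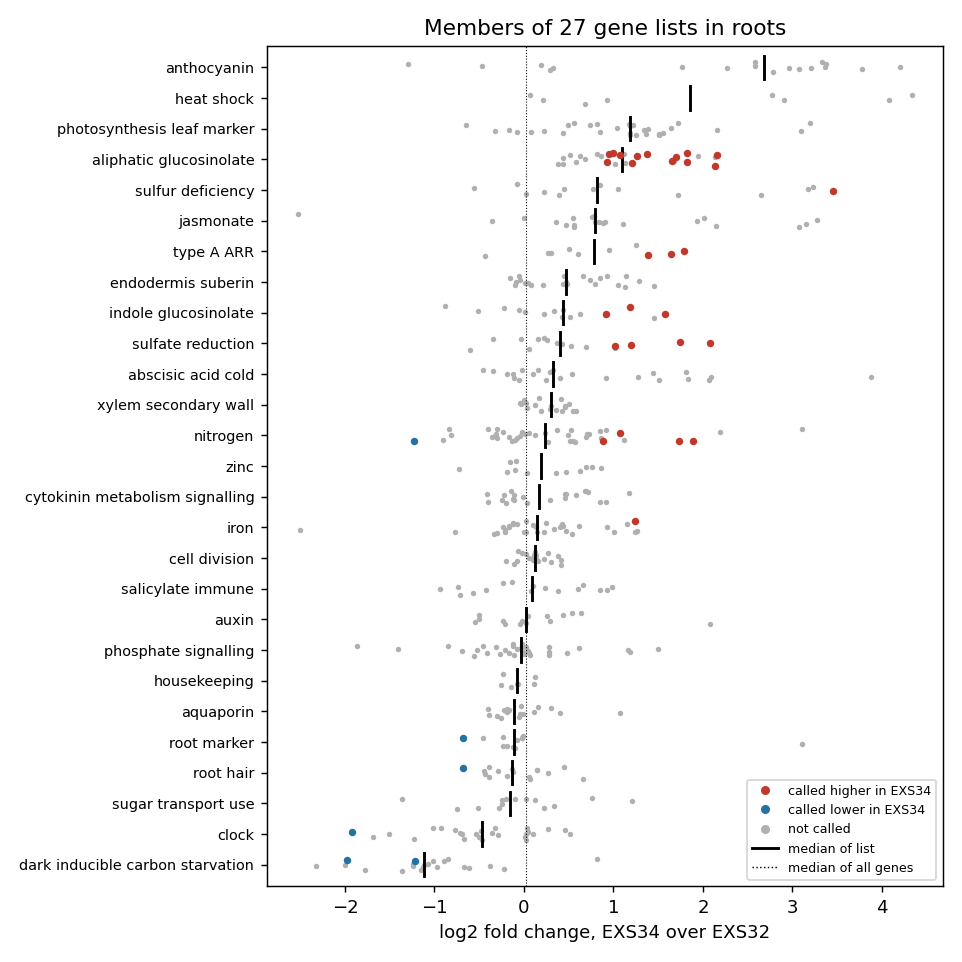
Each point is a tested member of 1 of 27 gene lists (rows), at its log2 fold change of EXS34 over EXS32 on the x axis; black bars are list medians and the dotted line is the median of all genes (0.02). Red points were called higher in EXS34 and blue points lower, and the anthocyanin list has the largest median (2.68) with no member called by edgeR.

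Several of the genes with the largest changes belong to other processes. AT2G48080, annotated as a 2-oxoglutarate and iron dependent oxygenase, had 32.1 and 59.1 CPM in EXS34, against 8.18 and 6.89 CPM in EXS32 (log2 fold change 2.60 ± 0.34, adjusted p = 0.0378). A second gene of that annotation, AT1G14120, had 24.7 and 31.0 CPM in EXS34, against 5.70 and 5.17 CPM in EXS32 (log2 fold change 2.36 ± 0.31, adjusted p = 0.0378). The zinc finger gene AT1G68360 had 10.2 and 17.43 CPM in EXS34, against 2.94 and 2.17 CPM in EXS32, 14.8 and 13.4 CPM in KO and 14.8 and 15.5 CPM in Compl (log2 fold change 2.44 ± 0.28, adjusted p = 0.0248). For all 3, the lowest EXS34 library was at least 3-fold above the highest EXS32 library.

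The secreted peroxidases PA2 and AT2G41480 were higher in EXS34. PA2 had 9.64 and 9.37 CPM in EXS34, against 2.53 and 2.34 CPM in EXS32 (log2 fold change 1.96 ± 0.29, adjusted p = 0.0410), and AT2G41480 had 96.5 and 129 CPM in EXS34, against 33.6 and 22.3 CPM in EXS32 (log2 fold change 2.01 ± 0.24, adjusted p = 0.0324). AZI1, a lipid transfer-like protein of systemic defence priming, had 6.58 and 11.3 CPM in EXS34, against 2.02 and 2.38 CPM in EXS32, 3.96 and 2.79 CPM in KO and 2.18 and 2.55 CPM in Compl (log2 fold change 2.02 ± 0.32, adjusted p = 0.0452). AZI1 was thus one of the genes for which KO and Compl stood near EXS32 and EXS34 was the high group.

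The genes that follow were chosen for a low adjusted p, a choice that by itself favours libraries close to each other. EDS5 (AT4G39030), of the MATE efflux family, is a gene of salicylate synthesis that is not on the salicylate list. EDS5 had 44.7 and 42.1 CPM in EXS34, against 18.1 and 18.6 CPM in EXS32. Its log2 fold change was 1.24 ± 0.12 (edgeR adjusted p = 0.0221). PAO5, a polyamine oxidase, had 85.6 and 91.2 CPM in EXS34, against 41.3 and 39.6 CPM in EXS32 (log2 fold change 1.13 ± 0.12, adjusted p = 0.0221), and FLA15 had 53.6 and 55.7 CPM in EXS34, against 26.1 and 24.9 CPM in EXS32 (log2 fold change 1.098 ± 0.12, adjusted p = 0.0221). AT3G28510, a P-loop ATPase, stood well above both lines in Compl, with 18.8 and 16.2 CPM in EXS34, against 7.67 and 6.81 CPM in EXS32, 22.9 and 21.7 CPM in KO and 96.2 and 83.0 CPM in Compl (log2 fold change of EXS34 over EXS32 1.27 ± 0.14, adjusted p = 0.0221).

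Other large decreases were of low to moderate transcripts. AT1G63590, a receptor-like kinase related gene, had 1.25 and 0.810 CPM in EXS34, against 3.63 and 5.04 CPM in EXS32 (log2 fold change -2.08 ± 0.31, adjusted p = 0.0410), and AT5G06980, with no annotated function, had 4.604 and 2.93 CPM in EXS34, against 14.2 and 17.1 CPM in EXS32 (log2 fold change -2.05 ± 0.30, adjusted p = 0.0410). AT4G36850, annotated as a PQ-loop transmembrane protein, had 42.5 and 38.01 CPM in EXS34, against 154 and 159.8 CPM in EXS32, 41.4 and 40.5 CPM in KO and 13.6 and 5.79 CPM in Compl (log2 fold change -1.96 ± 0.31, adjusted p = 0.0452). EXS32 was the highest group for each.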

How the data were processed

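Stranded mRNA libraries were made from total RNA of roots, per the labels' protocols. Each deposited file holds raw counts of reads for 32678 loci, as the authors left them, followed by lines without a gene. The submitters' processing notes name TAIR10, TopHat2 2.0.9, cutadapt 1.2.1, R 3.1.1, HTSeq 0.5.4p3, limma and edgeR; what each did, and with which strand setting, is not given in the sources used here. Overlapping and antisense genes are therefore uncertain, as are genes with near-identical copies, because multiply aligned reads are kept in a line of their own. Lines without a gene held 8.57 to 10.26% of reads and were dropped. Root libraries had 20139794 to 31405117 reads in genes, so low transcripts are measured less precisely. Libraries of the same group differed beyond counting error (chi-square 8.4 to 39.2 for each degree of freedom), and each counted as 1 replicate. TAIR10.1 supplied names and coordinates for 31912 loci. The leaf libraries were not used.

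The 8 root libraries entered 1 model in edgeR 4.0.16 (R 4.3.3), after filterByExpr with its minimum count of 10 and minimum total of 15 and with TMM factors. EXS34 minus EXS32 was tested by robust quasi-likelihood without a block, at a Benjamini-Hochberg adjusted p of 0.05. SE is the size of the log2 fold change over the square root of F. EXS34 replicate 2 carries sample number 1 in its description and was taken as replicate 2 from its title. The comparison, the 27 lists (562 entries, 557 loci, 528 tested) and the genes were chosen with earlier results of these data known. AOP2 was not analysed here. The genes named are PHO1; the 20 largest increases and 20 largest decreases among calls that average 2 CPM or more in a line and do not overlap; the 20 calls of lowest adjusted p; called list members and up to 4 others per list; and neighbouring calls. Markers in the opening, CYP79F1, FRO8, IAA28, SNRK2.3 and the genes under other observations were named after their values were seen.

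The test was run on counts simulated for this comparison, 5 times per fold with 200 genes changed among 20447 to 20470. The changed genes were drawn only from those averaging at least 1 CPM, so recovery of lower transcripts was not measured. For 2-fold changes the test recovered 52.2% of the changed genes, with 7.94% of calls false. For 4-fold changes these shares were 92.5% and 9.05%. The test called at most 1 gene when none was changed. Alternatives were DESeq2 1.42.0 and its size factors, library size alone, no filter, limma-voom 3.58.1, fewer groups, a replicate block, and omission of single libraries. Promoter windows are the 250 bases before the annotated gene start. Figures were drawn with matplotlib 3.10.9.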

Additional observations from a re-analysis of the deposited data

How the results depend on the processing

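The count of 187 called genes (119 higher and 68 lower in EXS34) was 163 with DESeq2 size factors, 184 with library size alone and 252 with no filter. DESeq2 called 1085 genes, 649 higher and 436 lower, including 186 of the 187. The limma-voom test called 127, 72 higher and 55 lower. With EXS34, EXS32 and KO alone 360 were called, 214 higher and 146 lower, and with only the EXS34 and EXS32 libraries 183, of which 116 are among the 187. Leaving out each library in turn gave 0 to 355 calls, 0 to 210 higher and 0 to 145 lower; 0 came from leaving out EXS34 replicate 2 or either EXS32 library, where 1 line then has a single library. The causes were not tested. All 187 genes kept their direction in every setting. The settings reuse the libraries that selected these genes, so this adds no separate support.

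Differences between replicates 1 and 2 by title number correlated at 0.00105 between EXS34 and EXS32. The same correlation was 0.266 between EXS34 and KO and -0.339 between EXS32 and KO. File names carry the numbers 2 and 3 for EXS34 and KO and 1 and 2 for EXS32 and Compl. File number is therefore partly confounded with line. Which numbering marks shared growth or preparation is not known. The replicate block by title number gave 140 calls, 92 higher and 48 lower, with 110 among the 187. The block by the number in the file names gave 27, 21 higher and 6 lower, with 18 among the 187. With it, 4 members of the aliphatic glucosinolate list, 1 of the indole list and 2 of sulfate reduction were called higher. Of type-A regulators 2 were called higher, of nitrogen genes 1 higher and 0 lower, and of dark-inducible genes 1 lower. Under both blocks the calls of PRR9, NAS1, GGCT2;1 and EXPA7 were lost (adjusted p = 0.0502 to 0.173). For PHO1, EXS34 against EXS32 in roots gave an uncalled log2 fold change of 0.02 that turned to -0.0208 with limma-voom and to -0.39 without EXS34 replicate 1; its other values were 0 to 0.33. None of 144 other genes followed through the settings changed direction in any of them. With 2 libraries per line and the recovery of 2-fold changes given above, many smaller differences would be missed.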

Other observations

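The called genes that follow were named after their values were seen. MS2, a methionine synthase, had 425 and 500.5 CPM in EXS34, against 223 and 217 CPM in EXS32 (log2 fold change 1.07 ± 0.15, adjusted p = 0.0410), and PSAT, the plastid enzyme of phosphoserine synthesis, had 144 and 154 CPM in EXS34, against 95.2 and 96.2 CPM in EXS32 (log2 fold change 0.64 ± 0.10, adjusted p = 0.0435). ASL9, a cytokinin-responsive gene, had 13.7 and 12.5 CPM in EXS34, against 5.51 and 5.33 CPM in EXS32 (log2 fold change 1.27 ± 0.19, adjusted p = 0.0410). ARR11, a type-B response regulator, was instead lower, with 65.6 and 63.6 CPM in EXS34, against 107 and 109 CPM in EXS32, 95.6 and 101 CPM in KO and 54.3 and 64.5 CPM in Compl (log2 fold change -0.74 ± 0.11, adjusted p = 0.0410). XTH31, a xyloglucan endotransglycosylase, was higher and had 118 and 154 CPM in EXS34, against 50.3 and 43.7 CPM in EXS32 (log2 fold change 1.53 ± 0.25, adjusted p = 0.0481), and its relatives XTR6 and XTH17 had log2 fold changes of 1.74 ± 0.22 and 0.85 ± 0.14 (adjusted p = 0.0330 and 0.0456). The cellulose synthase CESA2 had 258 and 263 CPM in EXS34, against 164 and 167 CPM in EXS32 (log2 fold change 0.65 ± 0.10, adjusted p = 0.0410).

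Trehalose and sugar genes were called in both directions. The trehalose phosphate phosphatase TPPH had 64.1 and 49.2 CPM in EXS34, against 23.8 and 16.6 CPM in EXS32 (log2 fold change 1.49 ± 0.24, adjusted p = 0.0456), and TPPI had 5.38 and 4.82 CPM in EXS34, against 2.07 and 1.64 CPM in EXS32 (log2 fold change 1.46 ± 0.23, adjusted p = 0.0435). ATTPS6, of the trehalose phosphate synthase family, was lower, with 52.1 and 43.5 CPM in EXS34, against 90.4 and 97.4 CPM in EXS32 (log2 fold change -0.97 ± 0.15, adjusted p = 0.0411). The hexose importer STP4 had 157 and 158 CPM in EXS34, against 308 and 311 CPM in EXS32, 172 and 146 CPM in KO and 144 and 112 CPM in Compl (log2 fold change -0.97 ± 0.14, adjusted p = 0.0410). UGE1, a second UDP-glucose epimerase, had 91.0 and 82.2 CPM in EXS34, against 196 and 192 CPM in EXS32 (log2 fold change -1.17 ± 0.13, adjusted p = 0.0248). The polyol and inositol transporters PMT6 and INT4 had log2 fold changes of -0.72 ± 0.10 and -0.88 ± 0.13 (adjusted p = 0.0410 and 0.0410). DYL1 and AT1G56220, dormancy-associated genes like AT2G33830, were also lower: DYL1 had 468 and 384 CPM in EXS34, against 822 and 844 CPM in EXS32, and AT1G56220 had 417 and 339 CPM in EXS34, against 783 and 844 CPM in EXS32 (log2 fold changes -0.97 ± 0.16 and -1.10 ± 0.18, adjusted p = 0.0452 and 0.0444). CDF2, a DOF factor controlled by the clock, had 19.0 and 17.8 CPM in EXS34, against 36.6 and 39.2 CPM in EXS32 (log2 fold change -1.04 ± 0.15, adjusted p = 0.0408).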
